A study of Mus musculus with 6 samples.

Results

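The genes described here are the dorsal and ventral patterning regulators of the optic cup. They are 7 of the 26437 genes in the deposited expression table and were taken from it by gene name. *Vax1*, *Vax2* and *Pax2* stand for the ventral side, *Tbx2*, *Tbx3* and *Tbx5* for the dorsal side, and *Bmpr1b*, which encodes a receptor for bone morphogenetic proteins (BMPs), was put on neither side. All 7 passed the filter on low values, a mean above 0.5 normalized counts over the 6 libraries, and were among the 22921 genes tested.

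RNA-seq was performed on mouse embryos at E10 to compare mRNA levels with and without *Rdh10*, which encodes the retinol dehydrogenase that makes retinaldehyde, the precursor of retinoic acid (RA). The wild-type group had 3 libraries, and the *Rdh10* KO group, from embryos homozygous for a null allele of *Rdh10* and obtained by mating heterozygous parents, had 3. Tissue of 3 embryos was pooled for each library, which makes 9 embryos per group and hides differences between the embryos of a pool. Both groups were on the same outbred mix of the Black Swiss and C57BL/6 strains.

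The tissue was the front of the head with both optic vesicles, the frontonasal region and some forebrain, so the eye is only a part of what was measured. Values are normalized counts, which are whole reads per gene divided by a single factor per library. The reads on genes numbered 19089872, 17626842 and 20808237 in wild-type replicates 1 to 3 and 27101025, 18511484 and 16392777 in *Rdh10* KO replicates 1 to 3. Fold changes compare *Rdh10* KO with wild-type libraries on the scale of log2(normalized counts + 0.1) and were tested with limma, with p-values adjusted over all 22921 genes. With 3 libraries against 3, an exact permutation test of a single gene cannot give a p below 0.1. Coordinates are on GRCm38 (mm10).

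In the forming optic cup, BMP4 made on the dorsal side acts through BMP receptors and turns on T-box genes, whose products are transcription factors of the dorsal retina. Sonic hedgehog from the ventral midline acts on the opposite side, where the homeobox genes *Vax1* and *Vax2* and the paired-box gene *Pax2* are used in the optic stalk, the optic fissure and the ventral retina. The sides oppose each other, and RA is made by different enzymes dorsally and ventrally, ALDH1A1 and ALDH1A3. None of the 7 genes is used in the eye alone. *Tbx2* and *Tbx3* are also used in facial mesenchyme, *Tbx5* in the heart and forelimb, *Pax2* at the boundary of midbrain and hindbrain and in the ear vesicle, and *Vax1* in the ventral forebrain.

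The targeted gene was checked in every library first. *Rdh10* (ENSMUSG00000025921.7, chr1:16105774-16133734) had, in normalized counts, 399, 342 and 381 (wild-type) and 183, 142 and 181 (*Rdh10* KO). Every library labelled *Rdh10* KO lay below every wild-type library, and on average 45.1% of the wild-type level was counted (log2 fold change −1.16, SE 0.13, adjusted p = 7.3e-05, limma). The optic genes *Rax*, *Six6*, *Lhx2* and *Pax6* were counted in all 6 libraries, the lowest of these values being that of *Rax* in wild-type replicate 3, at 185 normalized counts.

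The *Rdh10* KO libraries were not alike. The first principal component, with 54.5% of the variance, separated the genotypes, and the second, with 14.2%, separated *Rdh10* KO replicates 2 and 3 from each other. *Rdh10* KO replicate 1 stood apart in its marker genes. Of 8 forebrain markers, 7 were lowest in this library, as were 6 of 6 markers of embryonic blood, whereas 10.2% of all tested genes were lowest there. Summed over the list, the forebrain markers came to 63.6% of the wild-type mean in *Rdh10* KO replicate 1, against 121% and 119% in replicates 2 and 3. The blood markers, led by *Hbb-y*, came to 42.2%, 99.3% and 129%. The most abundant forebrain gene in wild-type was *Emx2*, with 282 normalized counts in *Rdh10* KO replicate 1 and 725 and 542 in replicates 2 and 3, and no gene of either list was at 0.

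**Figure D1:**
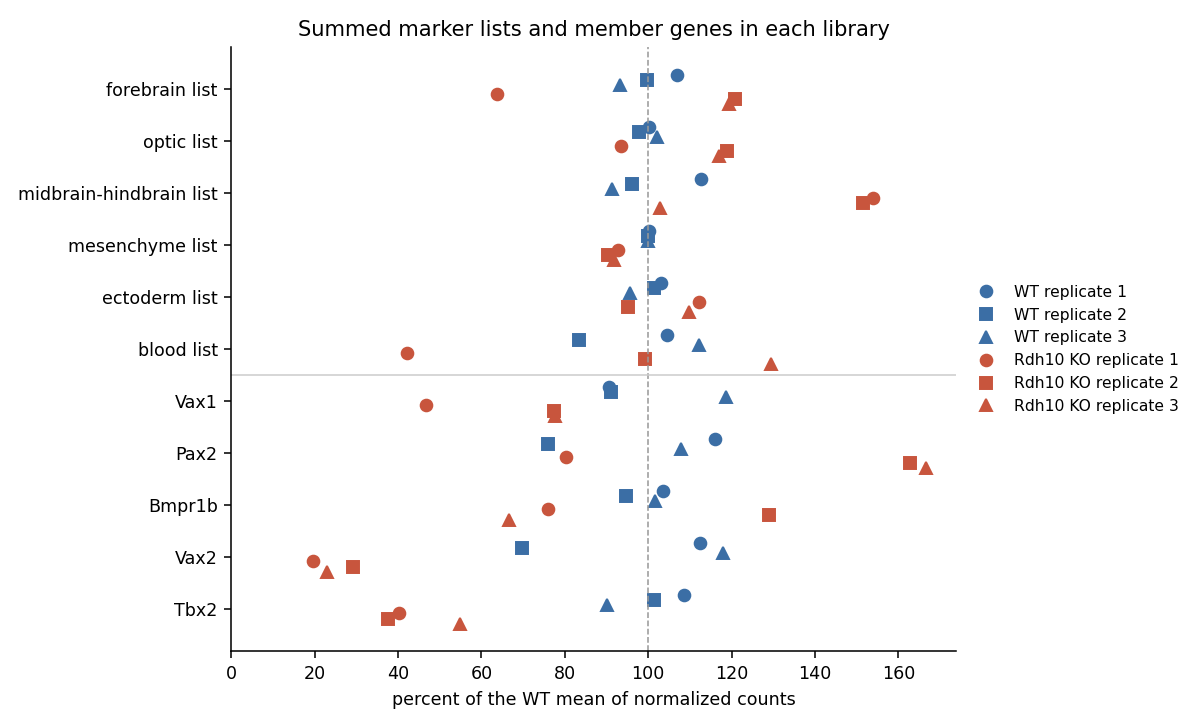
Sums of 6 marker lists and values of 5 of the genes described, in each library, as a percentage of the wild-type mean of normalized counts. Each point is a library. *Rdh10* KO replicate 1 is the lowest library for the forebrain list (63.6%) and the blood list (42.2%), and it is the lowest library for *Vax1*.

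Of the 7 genes, 2 passed the test and both fell in *Rdh10* KO tissue, the ventral gene *Vax2* and the dorsal gene *Tbx2*. The genes that fell thus came from both sides, and on each side another gene had a mean close to or above that of wild-type. The 2 genes make up 28.6% of the 7. Among all tested genes, 19.4% were called, 9.12% as lower and 10.3% as higher, and a single gene more or fewer would move the share of so short a list widely. Both genes also met the study's cut-off of 0.85 on the log2 scale, and 0.886% of all tested genes met it together with the adjusted p in that direction. In limma 0 of the 7 were called higher, and at an unadjusted p under 0.05 the counts were 3 lower and 0 higher. The share of all tested genes under that unadjusted threshold was not computed, so these counts cannot be compared with it. The edgeR quasi-likelihood and likelihood ratio tests on the recovered reads called 3 lower and 0 higher, and DESeq2 2 lower and 0 higher. Over all genes the same tests called 4798, 4978 and 4703 in either direction, in that order. The groups did not overlap for 3 of the 7, *Vax1*, *Vax2* and *Tbx2*, and for 34.6% of all tested genes. The median log2 fold change was −0.20 over the 7 genes and 0.0036 over all tested genes. In bulk tissue such as this, fewer cells that express a gene and less RNA of it per cell cannot be told apart.

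**Figure D2:**
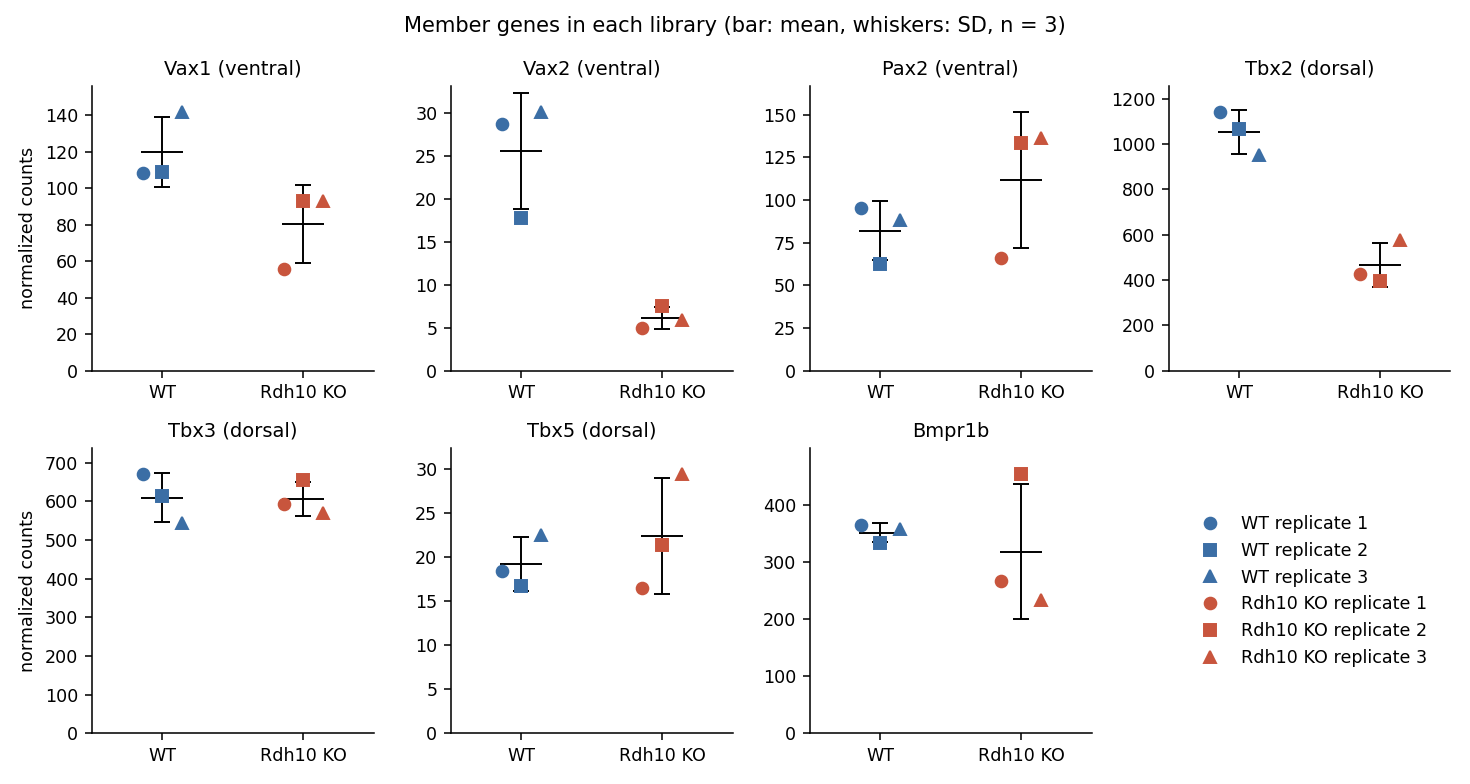
Normalized counts of the 7 genes in each library of wild-type (WT) and *Rdh10* KO tissue, with the group mean and SD (n = 3 each) and an axis from 0 in each panel. All *Rdh10* KO libraries lie below all wild-type libraries for *Vax1*, *Vax2* and *Tbx2*, and the groups overlap for *Pax2*, *Tbx3*, *Tbx5* and *Bmpr1b*.

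*Vax2* (ENSMUSG00000034777.2, chr6:83711264-83738313, plus strand) encodes a homeodomain protein of the ventral retina. Its normalized counts were 28.6, 17.8 and 30.1 (wild-type, from 28, 16 and 32 reads) and 5.01, 7.47 and 5.88 (*Rdh10* KO, from 7, 7 and 5 reads). All 3 *Rdh10* KO libraries were low and close together, and the highest of them was less than the lowest wild-type library. The mean was 25.5 ± 6.72 in wild-type and 6.12 ± 1.25 in *Rdh10* KO tissue (SD, n = 3 each). The fitted level was 4.07-fold lower, a log2 fold change of −2.02 (SE 0.47, 95% interval −3.03 to −1.01, adjusted p = 0.0078, limma). With so few reads, the size of the difference is known only within this wide interval. The exact two-sided permutation test gave p = 0.1, the smallest possible. *Vax2* kept its direction and stayed under an adjusted p of 0.05 in each of the 17 alternative settings, without *Rdh10* KO replicate 1 too (−1.89, adjusted p = 0.020 in limma, within a range of 6.5e-05 to 0.046 over these settings).

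The start of *Vax2* overlaps the antisense gene *Vax2os* over 938 bases. *Vax2os* had, in normalized counts, 4.09, 4.45 and 8.46 (wild-type) and 0, 2.13 and 2.35 (*Rdh10* KO), which is at most 2 reads in each *Rdh10* KO library. The libraries were directional, but whether the counting used the strand is not given in the sources used here, so a share of the reads in the overlap could belong to either gene.

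*Vax1* (ENSMUSG00000006270.7, chr19:59166187-59170056, minus strand), the closest relative of *Vax2*, is used in the optic stalk and ventral forebrain. The libraries had, in normalized counts, 108, 109 and 142 (wild-type) and 55.9, 92.8 and 92.9 (*Rdh10* KO). The groups did not overlap, and *Rdh10* KO replicate 1 lay well below the other *Rdh10* KO libraries. The mean was 120 ± 19.2 in wild-type and 80.5 ± 21.4 in *Rdh10* KO tissue (SD, n = 3 each). The difference of −0.60 on the log2 scale (SE 0.22, 95% interval −1.08 to −0.12) did not pass the test (adjusted p = 0.078, limma). The exact permutation p was 0.1, as for *Vax2* the smallest possible. The call depended on the method. It was made by the edgeR quasi-likelihood test (adjusted p = 0.046), the edgeR likelihood ratio test (0.042) and limma after quantile normalization (0.044), whereas DESeq2 gave 0.068, and the range over all 17 settings was 0.042 to 0.26. Without *Rdh10* KO replicate 1, the log2 fold change was −0.36 (adjusted p = 0.25, limma).

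The similarity of *Vax1* and *Vax2* bears on whether their reads can be told apart, so the most alike stretch of their coding sequences is shown. It is the pair of in-frame windows of 150 bases, each within 1 exon, with the most identical bases. In *Vax1* it lies at chr19:59168477-59168626 on the minus strand, in exon 2 of 3 of transcript Vax1-201, as coding bases 274 to 423 of 1014. In *Vax2* it lies at chr6:83733131-83733280 on the plus strand, in exon 2 of 3 of Vax2-201, as coding bases 280 to 429 of 876. Capitals mark the 27 bases that differ, and the sequences are from GENCODE mouse release M21.
Vax1: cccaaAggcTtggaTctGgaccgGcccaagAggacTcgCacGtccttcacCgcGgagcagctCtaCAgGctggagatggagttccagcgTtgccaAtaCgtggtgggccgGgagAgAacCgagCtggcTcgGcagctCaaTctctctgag
Vax2: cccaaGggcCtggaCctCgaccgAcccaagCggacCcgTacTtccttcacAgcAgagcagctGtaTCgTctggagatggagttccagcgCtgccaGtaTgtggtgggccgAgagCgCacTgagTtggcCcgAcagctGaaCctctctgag
The windows were 82.0% identical. The differing bases are spread along the stretch, the longest run of bases shared exactly by the whole transcripts was 23, and they shared 0 runs of 50 bases. An aligned read of that length therefore has a base that differs between *Vax1* and *Vax2*. Whether *Vax1* and *Vax2* differ in their response was not tested. In each library, the level of *Vax1* per kb of exon was 4.21, 6.81 and 5.25 times that of *Vax2* in wild-type and 12.4, 13.8 and 17.6 times in *Rdh10* KO tissue, without overlap. The ratios between genes given here and for other genes were chosen after the values were seen.

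*Pax2* (ENSMUSG00000004231.15, chr19:44756045-44837871, plus strand) encodes a paired-box transcription factor needed for the optic stalk and for closure of the optic fissure. It had, in normalized counts, 95.1, 62.3 and 88.4 (wild-type) and 65.9, 133 and 136 (*Rdh10* KO). *Rdh10* KO replicates 2 and 3 were above every wild-type library, but replicate 1 lay among them, so the groups overlapped. The mean was 82.0 ± 17.3 in wild-type and 112 ± 39.9 in *Rdh10* KO tissue (SD, n = 3 each). The difference of 0.40 on the log2 scale (SE 0.27, 95% interval −0.18 to 0.98) did not pass the test (adjusted p = 0.36, limma; exact permutation p = 0.3). Without *Rdh10* KO replicate 1 it was 0.74 and passed (adjusted p = 0.040, limma), the only one of 17 settings in which it did (range 0.040 to 0.72). Without wild-type replicate 2 or *Rdh10* KO replicate 2 or 3 it was 0.21, 0.23 and 0.22. *Pax2* was the ventral gene whose mean lay above that of wild-type.

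Among the *Rdh10* KO libraries, the summed forebrain markers, *Vax1* and *Pax2* were each lowest in replicate 1. Of 8 forebrain markers, 1 passed the test, *Dlx2*, which was higher (0.70, adjusted p = 0.0018, limma) and, unlike the sum, highest in *Rdh10* KO replicate 1, and the median log2 fold change was −0.06. Their sum was 3551, 3315 and 3098 normalized counts (wild-type) and 2114, 4012 and 3963 (*Rdh10* KO). In wild-type the order differed, as the sum was lowest in replicate 3, where *Vax1* was highest (142), and *Pax2* was lowest in replicate 2 (62.3). The share of all genes that were lowest in replicate 1 among the *Rdh10* KO libraries was not computed.

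Of 7 markers of the midbrain-hindbrain boundary, 3 passed the test and were higher in *Rdh10* KO tissue, *En1* (0.70), *Pax5* (0.93) and *Wnt1* (1.06). Without wild-type replicate 3, *En1* missed the threshold (adjusted p = 0.052, within a range of 0.00037 to 0.12 over its settings). The median of the list was 0.70, its most abundant gene was *En2*, and none was at 0. The sum was 2182, 1863 and 1767 normalized counts (wild-type) and 2981, 2937 and 1993 (*Rdh10* KO). It was highest in *Rdh10* KO replicates 1 and 2, whereas *Pax2* was highest in replicates 2 and 3. Of 6 genes in the table that were listed as ear vesicle markers, 1 passed, *Foxi2*, which was higher (0.81, adjusted p = 0.00078, limma). The list's sum was 126%, 131% and 137% of the wild-type mean in *Rdh10* KO replicates 1 to 3. Most of it came from *Lmx1a* (means of 302.1 in wild-type and 375.5 in *Rdh10* KO tissue), *Foxi2* (212 and 369) and *Sox10* (205 and 188). *Pax8* had means of 61.8 and 96.3. *Fbxo2* (10.4 and 16.0) and *Otop1* (6.13 and 2.93) had few counts, so the sum is no measure of ear vesicle tissue. The part of these tissues in the values of *Vax1* and *Pax2* was not tested.

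*Tbx2* (ENSMUSG00000000093.6, chr11:85832551-85841948, plus strand) encodes a T-box repressor of the dorsal optic cup. Its normalized counts were 1143, 1067 and 950 (wild-type) and 425, 396 and 577 (*Rdh10* KO). Every *Rdh10* KO library was far below every wild-type library, and the gap between the groups was wider than the spread within either. The mean was 1053 ± 97.3 in wild-type and 466 ± 97.1 in *Rdh10* KO tissue (SD, n = 3 each). The fitted level was 2.29-fold lower, a log2 fold change of −1.19 (SE 0.13, 95% interval −1.47 to −0.92, adjusted p = 4.2e-05, limma; exact permutation p = 0.1). *Tbx2* remained called in all 17 alternative settings, and leaving out any single library gave −1.36 to −1.09. No annotated gene in the table overlaps *Tbx2*.

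*Tbx3* (ENSMUSG00000018604.18, chr5:119670669-119684724, plus strand) is the T-box gene most like *Tbx2*. The libraries had, in normalized counts, 670, 614 and 545 (wild-type) and 594, 655 and 569 (*Rdh10* KO). The groups lay on top of each other, with means of 610 ± 62.5 and 606 ± 44.1 (SD, n = 3 each). *Tbx3* differed by −0.0066 on the log2 scale (SE 0.10, adjusted p = 0.98, limma), and the 95% interval, −0.22 to 0.21, leaves out a difference as large as that of *Tbx2*. The antisense gene *Tbx3os1* overlaps *Tbx3* over 697 bases and averaged 22.9 ± 6.0 normalized counts (wild-type) and 17.1 ± 8.17 (*Rdh10* KO; SD, n = 3 each), few beside those of *Tbx3*.

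The same comparison of sequence was made for *Tbx2* and *Tbx3*, since the first fell and the second did not pass. The most alike windows are at chr11:85834717-85834866 in *Tbx2*, in exon 2 of 7 of Tbx2-201 and coding bases 493 to 642 of 2133, and at chr5:119674123-119674272 in *Tbx3*, in exon 2 of 8 of Tbx3-201 and coding bases 487 to 636 of 2223, both on the plus strand. Capitals mark the 30 bases that differ.
Tbx2: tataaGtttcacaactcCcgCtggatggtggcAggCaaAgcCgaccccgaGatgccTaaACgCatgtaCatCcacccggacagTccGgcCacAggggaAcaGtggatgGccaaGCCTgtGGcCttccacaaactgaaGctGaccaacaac
Tbx3: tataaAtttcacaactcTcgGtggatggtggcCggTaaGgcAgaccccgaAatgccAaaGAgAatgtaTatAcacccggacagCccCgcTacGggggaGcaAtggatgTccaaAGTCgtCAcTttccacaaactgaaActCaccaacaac
The windows were 80.0% identical. The longest run shared by the whole transcripts was 14 bases, and 0 runs of 50 bases were shared, so reads of the pair can be told apart. The level of *Tbx2* per kb of exon was 3.12, 3.17 and 3.18 times that of *Tbx3* in the wild-type libraries and 1.31, 1.1 and 1.85 times in the *Rdh10* KO libraries. The ratio was nearly constant in wild-type and lower in every *Rdh10* KO library, and as a ratio within a library it does not depend on the scaling between libraries.

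*Tbx5* (ENSMUSG00000018263.11, chr5:119832668-119885219, plus strand), the third dorsal T-box gene, lies on the same chromosome as *Tbx3*. It had, in normalized counts, 18.4, 16.7 and 22.6 (wild-type) and 16.5, 21.3 and 29.4 (*Rdh10* KO), from 15 to 25 reads in each library. The groups overlapped. Its log2 fold change, 0.19, had a wide interval (SE 0.38, 95% interval −0.62 to 1.01, adjusted p = 0.78, limma), so at this depth neither a fall nor a rise of moderate size could be detected. It was −0.02 without *Rdh10* KO replicate 3, the highest library.

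Markers of other tissues that use T-box genes were measured beside these. Of 10 heart markers, 1 passed the test, *Actc1*, the most abundant of them (1.46, adjusted p = 0.0067, limma). The list summed to 148, 131 and 103 normalized counts (wild-type) and 179, 208 and 328 (*Rdh10* KO), its median was 0.55, and *Nkx2-5*, a gene of heart precursors, was at 0 in every wild-type library and at 1.18 to 2.15 in *Rdh10* KO libraries. *Actc1* alone made up 248 of the 328 in *Rdh10* KO replicate 3. Of the other heart genes, *Myl7* (−1.23, groups without overlap) and *Tnnt2* (−1.73) had log2 fold changes of the other sign and did not pass. Limb markers were near 0, with a sum of 25.6, 31.2 and 4.70 normalized counts (wild-type) and 5.01, 5.34 and 3.53 (*Rdh10* KO), led by *Tbx4*. Of these 8 genes, 6 were tested, 5 were at 0 in every *Rdh10* KO library (*Hoxa9*, *Hoxa11*, *Hoxd9*, *Hoxd10* and *Hoxd12*), and 6 of 6 did not pass. The list's median of −2.45 rests on genes with so few reads and is no measure of a difference.

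Facial mesenchyme, where *Tbx2* and *Tbx3* are also used, gave a steadier list. Of 9 markers, 1 passed, *Alx4*, which fell (−0.95, adjusted p = 2.3e-06, limma). The sum was 92.8%, 90.4% and 91.9% of the wild-type mean in *Rdh10* KO replicates 1 to 3, its most abundant gene was *Prrx1*, and the median was −0.13. The level of *Tbx2* per kb was also divided by that of *Twist1*, a mesenchyme gene. This ratio was 0.208, 0.182 and 0.176 in wild-type and 0.0679, 0.0697 and 0.0929 in *Rdh10* KO tissue, without overlap. Among the 9 markers, *Twist1* lay highest (0.11 on the log2 scale) and did not pass, whereas the median was −0.13. A ratio to this gene alone is therefore no measure of the part of mesenchyme in the values of *Tbx2*. Pharyngeal arch markers, led by *Dlx5*, summed to 138%, 124% and 109% of the wild-type mean in *Rdh10* KO replicates 1 to 3 with a median of 0.29, and 7 of 7 did not pass. Most of this sum came from *Dlx3* (means of 215 in wild-type and 249 in *Rdh10* KO tissue), *Dlx5* (232 and 284) and *Dlx6* (130 and 177). *Hand2*, *Hand1*, *Hoxa2* and *Dlx4* had few counts (group means of 2.77 to 11.3), so the sum is no measure of arch tissue. Of 8 surface ectoderm markers, *Cdh1* passed and was higher (0.30), a call lost when any single library other than *Rdh10* KO replicate 2 was left out (adjusted p up to 0.17). The ectoderm sum was 112%, 95% and 110% of the wild-type mean, led by *Krt18*, with a median of 0.15. The part of these tissues in the values of the T-box genes was not tested.

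*Bmpr1b* (ENSMUSG00000052430.15, chr3:141837136-142169425, minus strand) encodes a type I receptor for BMPs that is found on the ventral side of the retina. Its normalized counts were 364, 333 and 357 (wild-type) and 267, 453 and 234 (*Rdh10* KO). The wild-type libraries were close together, and the *Rdh10* KO libraries lay on both sides of them. The mean was 351 ± 16.5 in wild-type and 318 ± 118 in *Rdh10* KO tissue (SD, n = 3 each). On the log2 scale the groups differed by −0.20 (SE 0.19, 95% interval −0.61 to 0.20, adjusted p = 0.52, limma; exact permutation p = 0.6). Without *Rdh10* KO replicate 2, the only *Rdh10* KO library above wild-type, it was −0.49 and passed (adjusted p = 0.019, limma, within a range of 0.019 to 0.98 over 17 settings). Without *Rdh10* KO replicate 1 it was −0.11 and without replicate 3 −0.01, so each *Rdh10* KO library moved the value.

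Other receptors of the family were measured beside it, and whether their response differs from that of *Bmpr1b* was not tested. Of 7 further genes for BMP and activin receptors, 6 passed and were higher in *Rdh10* KO tissue, with a median log2 fold change of 0.36. The largest difference was that of *Acvrl1*, which rose from 173, 177 and 186 normalized counts in wild-type to 286, 365 and 387 in *Rdh10* KO tissue (0.94, SE 0.13, adjusted p = 0.00032, limma). *Bmpr2*, the type II receptor for BMPs, rose by less (0.37, adjusted p = 0.0067, limma), from 1265, 1165 and 1305 to 1545, 1780 and 1515 normalized counts. *Bmpr1a*, the most abundant, did not pass (0.17, 95% interval −0.04 to 0.38, adjusted p = 0.26). It passed without *Rdh10* KO replicate 3 (0.28, adjusted p = 0.045, within a range of 0.045 to 0.76), and without *Rdh10* KO replicate 2 its log2 fold change was 0.04. The calls of *Acvr1*, *Acvr1b*, *Acvr2a* and *Acvr2b*, with log2 fold changes of 0.25 to 0.38, rested on single libraries. *Acvr1b* lost its call whichever of the 6 was left out (adjusted p up to 0.16), and *Acvr1* whichever was left out but *Rdh10* KO replicate 1. *Acvr2a* lost its call without wild-type replicate 1 or 2 or *Rdh10* KO replicate 2 (a log2 fold change of 0.25 without the last). The call of *Acvr2b* was lost without wild-type replicate 1 or 2 or *Rdh10* KO replicate 1 or 3 (adjusted p up to 0.13). That of *Bmpr2* was lost without wild-type replicate 2 (adjusted p = 0.060, within a range of 0.00066 to 0.11 over its settings).

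**Figure D3:**
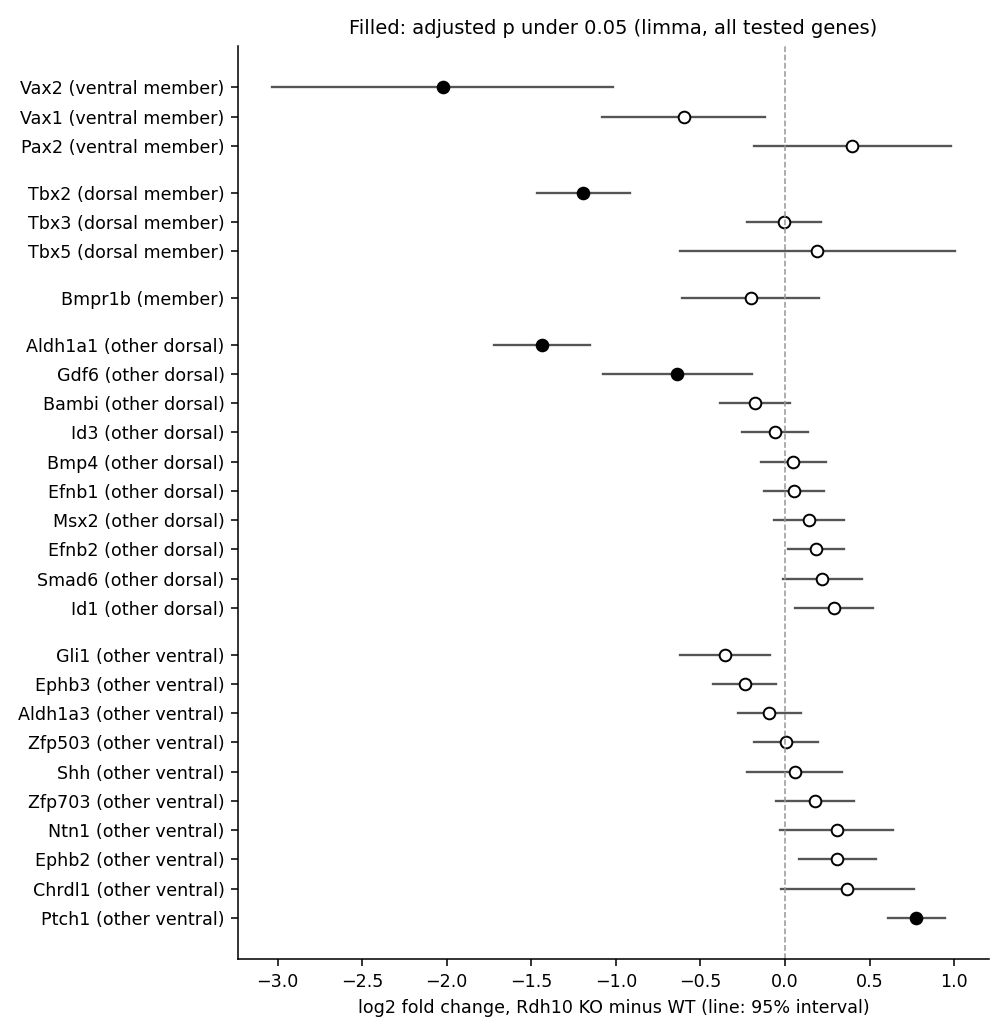
Log2 fold changes, *Rdh10* KO minus wild-type, with 95% intervals for the 7 genes and for the other dorsal and ventral genes. Filled points passed at an adjusted p under 0.05 (limma, over all 22921 tested genes). *Vax2*, *Tbx2*, *Aldh1a1* and *Gdf6* lie below 0 and *Ptch1* above, and the other genes shown did not pass.

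When the sides were set against each other within each library, no shift from one side to the other was seen that held for both ways of computing it. The mean log2 level of *Vax1*, *Vax2* and *Pax2* minus that of *Tbx2*, *Tbx3* and *Tbx5* was −1.86, −2.17 and −1.65 in wild-type and −2.60, −1.96 and −2.33 in *Rdh10* KO tissue. Its mean was −1.89 ± 0.26 in wild-type and −2.30 ± 0.32 in *Rdh10* KO tissue (SD, n = 3 each), and the groups overlapped. On the scale of sums, in which abundant genes count for more, the ventral genes came to 12.7%, 11.1% and 17.2% of the dorsal genes in wild-type and 12.2%, 21.8% and 20% in *Rdh10* KO tissue. The difference between the group means, −0.41 when each gene counted alike, was 0.38 with sums. Apart from each other, the ventral mean was 5.96 ± 0.29 in wild-type and 5.21 ± 0.42 in *Rdh10* KO tissue on the log2 scale, and the dorsal mean 7.85 ± 0.06 and 7.51 ± 0.21 (SD, n = 3 each). Both of these means of logs were lower in every *Rdh10* KO library than in every wild-type library. The ventral sum overlapped, with 232, 189 and 261 normalized counts (wild-type) and 127, 234 and 235 (*Rdh10* KO). The dorsal sum did not overlap, with 1831, 1698 and 1518 normalized counts (wild-type) and 1035, 1072 and 1175 (*Rdh10* KO). The median log2 fold change was −0.60 for the ventral genes, that of *Vax1*, and −0.0066 for the dorsal genes, that of *Tbx3*.

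The genes differed widely in level. Per kb of exon, wild-type tissue had 291 ± 26.8 normalized counts of *Tbx2*, 107 ± 17.2 of *Vax1*, 92.1 ± 9.43 of *Tbx3*, 58.9 ± 2.77 of *Bmpr1b*, 20.5 ± 5.41 of *Vax2*, 15.1 ± 3.20 of *Pax2* and 4.11 ± 0.65 of *Tbx5* (SD, n = 3 each). Neighbours in this order whose values overlapped between libraries were *Vax1* and *Tbx3*, and *Vax2* and *Pax2*. In *Rdh10* KO tissue the order was *Tbx2* with 128 ± 26.8, *Tbx3* with 91.5 ± 6.66, *Vax1* with 72.1 ± 19.1, *Bmpr1b* with 53.4 ± 19.8, *Pax2* with 20.7 ± 7.38, *Vax2* with 4.93 ± 1.0 and *Tbx5* with 4.79 ± 1.40. Here the neighbours whose values overlapped between libraries were *Vax1* and *Bmpr1b*, and *Vax2* and *Tbx5*. *Tbx2* was thus the most abundant gene in both groups, but stood far less above *Tbx3* in *Rdh10* KO tissue, and *Vax2* came down to the level of *Tbx5*.

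**Figure D4:**
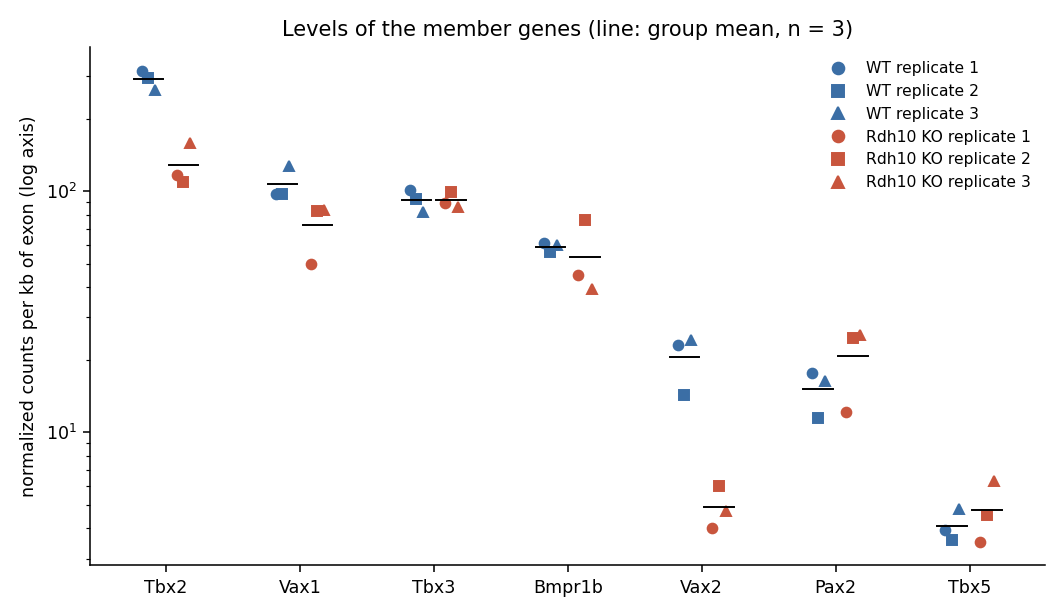
Normalized counts per kb of exon of the 7 genes in each library, on a log axis, in the order of the wild-type means. Lines are group means (n = 3 each). The wild-type mean of *Tbx2* is 291 and the *Rdh10* KO mean 128, and the *Rdh10* KO mean of *Vax2* is 4.93, next to 4.79 for *Tbx5*.

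Other genes of the dorsal optic cup and of the BMP signal there were examined as a list of 10, of which 2 passed the test and were lower, 8 did not pass, and the median log2 fold change was 0.05. *Aldh1a1*, the RA-synthesizing enzyme of the dorsal retina, had, in normalized counts, 378, 425 and 409 (wild-type) and 150, 170 and 129 (*Rdh10* KO). No library of either group came near the other group, and *Aldh1a1* fell by 1.44 on the log2 scale (SE 0.13, adjusted p = 1.1e-05, limma). *Gdf6*, a BMP ligand of the dorsal retina, fell from 109, 128 and 101 to 91.7, 68.3 and 60 normalized counts (−0.64, SE 0.21, adjusted p = 0.043, limma). This call was lost in 9 of 17 settings, and on leaving out any single library but *Rdh10* KO replicate 1 (adjusted p up to 0.18). *Bmp4* itself, the dorsal ligand, had, in normalized counts, 698, 702 and 634 (wild-type) and 650, 728 and 728 (*Rdh10* KO), a log2 fold change of 0.05 with a 95% interval of −0.14 to 0.24. Leaving out 1 library gave *Bmp4* values from 0.0022 (wild-type replicate 3 left out) to 0.10 (*Rdh10* KO replicate 1). The BMP response genes *Id1* (0.29, adjusted p = 0.075), *Id3* (−0.06), *Msx2* (0.14), *Smad6* (0.22) and *Bambi* (−0.18), and the ephrins *Efnb1* (0.05) and *Efnb2* (0.18), did not pass in limma. With 1 library left out, *Smad6* ranged from 0.13 (wild-type replicate 3 left out) to 0.29 (wild-type replicate 1). *Msx2* ranged from 0.09 (wild-type replicate 3) to 0.20 (*Rdh10* KO replicate 2). *Id1* was higher in every *Rdh10* KO library than in every wild-type library and passed in 5 of 17 settings, among them DESeq2 and both edgeR tests, and without *Rdh10* KO replicate 2 (0.39, adjusted p = 0.032, within a range of 0.020 to 0.31), whereas without *Rdh10* KO replicate 1, its highest library, it was 0.14 (adjusted p = 0.26). *Efnb2* passed without *Rdh10* KO replicate 3 (0.24, adjusted p = 0.048, within a range of 0.048 to 0.35), and its log2 fold change was 0.11 without replicate 2.

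Among 10 other genes of the ventral optic cup and of hedgehog signalling, 1 passed, *Ptch1*, and the median log2 fold change was 0.12. *Ptch1*, which encodes the hedgehog receptor and is itself a target of the pathway, rose from 2777, 2613 and 2683 normalized counts in wild-type to 4099, 4746 and 5029 in *Rdh10* KO tissue (0.78, SE 0.08, adjusted p = 2.6e-05, limma). *Gli1*, another target of the pathway, had, in normalized counts, 975, 850 and 877 (wild-type) and 690, 581 and 867 (*Rdh10* KO). The groups overlapped and its log2 fold change was of the other sign, −0.35 (SE 0.12, adjusted p = 0.059, limma), past the threshold in 8 of 17 settings, among them the one without *Rdh10* KO replicate 3 (−0.51, adjusted p = 0.0073, within a range of 0.0073 to 0.27), and it was −0.22 without replicate 2 (adjusted p = 0.23). *Shh*, the ligand, had a log2 fold change of 0.06 (95% interval −0.23 to 0.34). *Aldh1a3*, the enzyme of RA synthesis in the ventral retina, had, in normalized counts, 2825, 2771 and 3162 (wild-type) and 2895, 2931 and 2407 (*Rdh10* KO), and did not pass (−0.09, 95% interval −0.28 to 0.09). With 1 library left out, *Aldh1a3* ranged from −0.14 (*Rdh10* KO replicate 2 left out) to −0.00054 (replicate 3). *Ephb2* (0.31, adjusted p = 0.055) and *Ephb3* (−0.24, adjusted p = 0.072), receptors of the ventral retina, had log2 fold changes of opposite sign and did not pass in limma, although *Ephb2* did in 8 of 17 settings, among them those without *Rdh10* KO replicate 1 or 2, and *Ephb3* with median scaling. Without *Rdh10* KO replicate 3, its highest library, the log2 fold change of *Ephb2* was 0.16 (adjusted p = 0.17). *Chrdl1* (0.37), *Ntn1* (0.31), *Zfp703* (0.18) and *Zfp503* (0.0072) did not pass in limma with all 6 libraries. With 1 library left out, *Chrdl1* ranged from 0.18 (*Rdh10* KO replicate 2 left out) to 0.54 (replicate 3) and *Zfp703* from 0.09 (replicate 3) to 0.29 (replicate 2). *Ntn1* passed in the edgeR quasi-likelihood test (adjusted p = 0.042) and without *Rdh10* KO replicate 2 (0.56, adjusted p = 0.0016, within a range of 0.0016 to 0.58), but its log2 fold change was 0.19 without replicate 1 and 0.16 without replicate 3.

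The other axis of the retina, from nasal to temporal, was covered by 8 genes, of which 4 passed, 2 in each direction, with a median of −0.05. *Efna5* (0.35, adjusted p = 0.0097) and *Foxd2* (0.54, adjusted p = 0.0041) were higher, and *Efna2* (−0.38, adjusted p = 0.041) and *Epha3* (−0.37, adjusted p = 0.037) were lower in limma. The call of *Efna2* was lost without wild-type replicate 1 or 2 or *Rdh10* KO replicate 1 or 3 (then −0.24 without the last), that of *Efna5* without wild-type replicate 2 or 3, and that of *Epha3* whichever library was left out but *Rdh10* KO replicate 3 (adjusted p up to 0.21, 0.054 and 0.15). That of *Foxd2* was kept whichever single library was left out. *Foxd1* of the temporal side had a log2 fold change of −0.05 (95% interval −0.25 to 0.16).

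In the optic list of 10 genes, 3 were higher and 1 lower, with a median of 0.03. For *Otx2* the log2 fold change was 0.53 (adjusted p = 0.00081), *Rax* of 0.64 (adjusted p = 0.034) and *Six3* of 0.48 (adjusted p = 0.045), and *Lhx2* of −0.79 (adjusted p = 0.0094, limma). *Otx2* was also the most abundant gene of the list, and none was at 0. Leaving out any single library but *Rdh10* KO replicate 1 ended the calls of *Rax* and *Six3* (adjusted p up to 0.17 and 0.21), and leaving out any wild-type library ended that of *Lhx2* (adjusted p up to 0.052). *Lhx2* also missed the threshold in DESeq2 (−0.72, adjusted p = 0.063). Without *Rdh10* KO replicate 1 the log2 fold change of *Lhx2* was −0.46 and that of *Six3* 0.72, and without replicate 3 that of *Six3* was 0.31. The sum of the list was 93.4%, 119% and 117% of the wild-type mean in *Rdh10* KO replicates 1 to 3. Relative to *Rax*, the level of *Vax2* per kb was 0.701, 0.403 and 0.765 in wild-type and 0.116, 0.0999 and 0.0700 in *Rdh10* KO tissue, without overlap.

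The rest of the T-box and Pax families was examined to place the members among their relatives. Of 13 other T-box genes in the table, 3 passed. The median of −0.30 over the list is that of the T gene, which had 1.18 to 8.46 normalized counts, and as many of the list have few reads it is no measure of a difference. *Eomes* fell from 34.8, 36.7 and 36.7 to 4.30, 5.33 and 7.06 normalized counts (−2.70, SE 0.43, adjusted p = 0.00068, limma), a larger fall on the log2 scale than that of *Tbx2*. *Tbx15* was lower (−0.80, adjusted p = 0.015), a call lost without wild-type replicate 1 or 2 or without *Rdh10* KO replicate 2 (adjusted p up to 0.10), and *Mga*, the most abundant, was higher (0.50, adjusted p = 0.00029, limma). *Tbx18*, of the head mesenchyme, had a log2 fold change of −0.05 (95% interval −0.28 to 0.19). Of 7 other Pax genes, *Pax5* was higher, *Pax1* (−1.94, adjusted p = 0.033) and *Pax7* (−0.40, adjusted p = 0.016, limma) were lower, and 4 did not pass, with a median of −0.11. *Pax6*, the most abundant and a regulator of the whole eye field, had a log2 fold change of −0.11 (95% interval −0.33 to 0.10). The call of *Pax1* was lost when any wild-type library or *Rdh10* KO replicate 2 was left out, and that of *Pax7* without wild-type replicate 1 or 2 (adjusted p up to 0.12 and 0.087). Of the members and list genes called, *Vax2*, *Tbx2*, *Aldh1a1*, *Ptch1*, *Eomes*, *Alx4* and *Acvrl1* kept their calls in limma without the trend. The others lost theirs there, from *Wnt1* (adjusted p = 0.0504) and *Mga* (0.054) to *Six3* (0.28), among them *Foxi2* (0.058), *Foxd2* (0.073), *Otx2* (0.083), *Dlx2* (0.087), *Pax5* (0.10) and *Actc1* (0.15).

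The genes whose profiles were most like those of the members were sought over the 6 libraries among 15271 other genes with a mean above 10. Likeness was the Euclidean distance between log2 profiles centred on their own wild-type means. Close to *Vax2* were *Col14a1* (0.483) and *Htr3b* (0.712), and *Tbx2* was nearest to *Tspan11* (0.287), *Six2* (0.312) and *Rnaset2b* (0.350). The normalized counts of *Six2* were 1027, 966 and 1088 (wild-type) and 398, 419 and 573 (*Rdh10* KO), low in all 3 *Rdh10* KO libraries as those of *Tbx2* were. *Vax1* was nearest to *5930430L01Rik* (0.186), *Pax2* to *5930420M18Rik* (0.211), *Tbx3* to *Pfkfb4* (0.0876) and *Tbx5* to *Meg3* (0.174). These distances describe 6 libraries and no more.

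**Figure D5:**
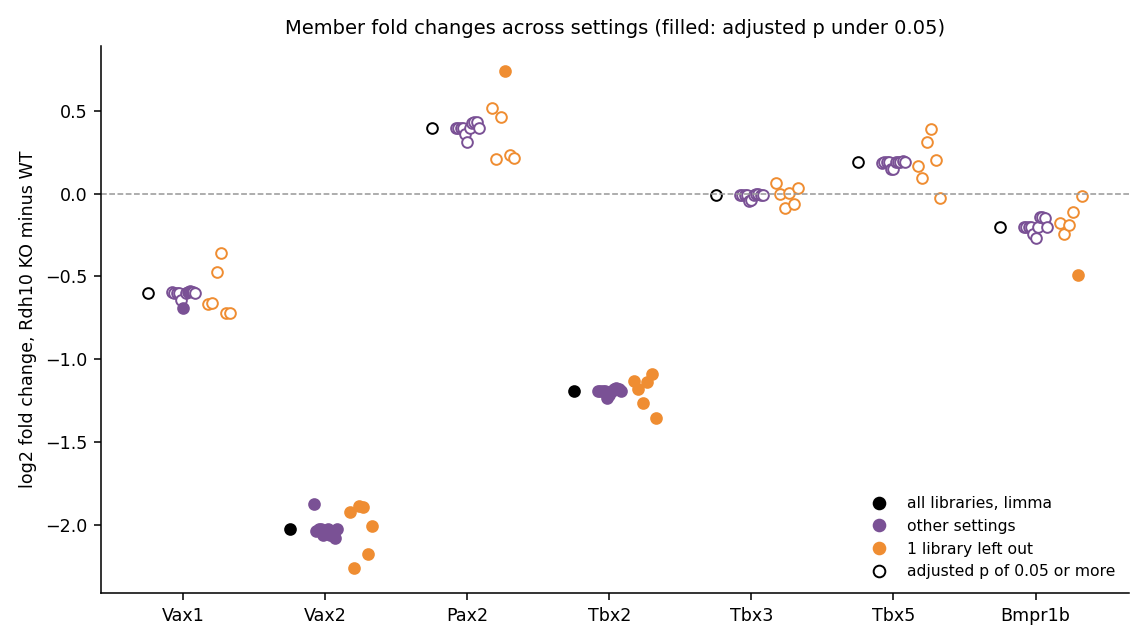
Log2 fold changes of the 7 genes with all 6 libraries in limma, in other settings and with 1 library left out. Filled points have an adjusted p under 0.05. *Vax2* and *Tbx2* are filled throughout, *Pax2* only without *Rdh10* KO replicate 1 (0.74) and *Bmpr1b* only without *Rdh10* KO replicate 2 (−0.49), and the log2 fold changes of *Tbx3* and *Tbx5* lie on both sides of 0.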

How the data were processed

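RNA-seq of E10 frontal head tissue was analysed for 6 libraries, grouped by the genotype in the labels, 3 wild-type and 3 *Rdh10* KO. As published, the authors made directional libraries after poly(A) selection, aligned reads to mm10 with TopHat, estimated transcript abundance by Expectation–Maximization, named FPKM as the normalization and tested with an edgeR likelihood ratio test. The annotation used is not given in the sources used here. The deposited signal was assumed to be FPKM when the tests were chosen. It proved instead to be whole reads over a factor for each library, the median-of-ratios size factor, with no division by gene length, and multiplying back gave whole reads (within 0.1 read) for 100% of the values of each library. The test on a log scale was kept, and count tests were run on the recovered reads. They called 4798 genes (edgeR quasi-likelihood), 4978 (edgeR likelihood ratio) and 4703 (DESeq2), against 4451 in limma.

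Below the header are 26438 lines, and 1 of them is without a gene. Of the 26437 genes, 26288 were matched by identifier to GENCODE mouse release M21 (GRCm38), which gave positions, exon lengths and transcript sequences.

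Genes with a mean above 0.5 were tested on log2(value + 0.1) in R 4.3.3 with limma 3.58.1 (lmFit, then eBayes with its trend option). The model held genotype alone, with Benjamini–Hochberg adjustment over 22921 genes and a threshold of 0.05. Single genes were also compared by exact two-sided permutation tests of group means. Alternatives were pseudocounts of 1 and 0.01, no filter, a mean above 10, median scaling, quantile normalization, limma without the trend, edgeR 4.0.16, DESeq2 1.42.0, a block for the replicate number and leaving out each library. The tests were tried on simulated data. Tables, exact tests and plots were made in Python 3.11.15 (scipy 1.17.1, numpy 2.4.6, pandas 2.3.3, matplotlib 3.10.9).

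The members and the gene lists were chosen with earlier results of these data known. Genes named are the members, *Rdh10*, genes of the dorsal, ventral and nasal-temporal lists, genes overlapping a member, called genes of the T-box, Pax and receptor families, the most abundant gene of each marker list (optic, forebrain, mesenchyme, ectoderm, heart, limb, pharyngeal arch, midbrain-hindbrain, ear vesicle, blood) and some of the nearest profiles. Other genes of these lists named beside them were chosen after their values were seen. *Tbx10*, *Pax4* and *Oc90* of the lists were not among the genes analysed here. Intervals cover the spread between pools of 3 embryos.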

Additional observations from a re-analysis of the deposited data

How the results depend on the processing

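*Vax2* and *Tbx2* kept their direction and their side of the threshold in all 17 alternatives, with log2 fold changes of −2.26 to −1.88 and −1.36 to −1.09. *Vax1* passed with quantile normalization (−0.69), the edgeR quasi-likelihood test (−0.5933) and the edgeR likelihood ratio test (−0.5906). Leaving out 1 library at a time gave −0.72 to −0.36 for *Vax1*, 0.21 to 0.74 for *Pax2* (past the threshold without *Rdh10* KO replicate 1), −0.49 to −0.01309 for *Bmpr1b* (past it without *Rdh10* KO replicate 2), −0.08477 to 0.06378 for *Tbx3* and −0.02 to 0.39 for *Tbx5*. The sign turned for *Tbx3* without wild-type replicate 1 (0.06378), wild-type replicate 2 (0.0010), *Rdh10* KO replicate 1 (0.0070) or 3 (0.03697), and for *Tbx5* without *Rdh10* KO replicate 3 (−0.02479). The cause of these differences was not tested.

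The count of genes called over all tested genes was 645 in limma without the trend (197 lower, 448 higher) and 755 past the log2 cut-off as well (203 lower, 552 higher). With 1 library left out they numbered 2483 to 4207 (992 to 2068 lower, 1491 to 2139 higher), where fewer libraries also mean a weaker test. With a block for the replicate number, 3102 were called, 1387 of them lower. Whether wild-type and *Rdh10* KO libraries of the same number were prepared together is not given in the sources used here. Their deviations from the group means correlated across 15272 genes at r = −0.026, −0.035 and −0.074. Pairs of unlike number had r from −0.036 to 0.066. Such values cannot show whether the libraries were paired, and genes are not independent replicates.

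The related genes called, from the dorsal, ventral and nasal-temporal lists, numbered 7, 4 lower and 3 higher. The count was 4 with a pseudocount of 0.01 (1 lower), 2 in limma without the trend (1 lower, 1 higher), 11 with the edgeR quasi-likelihood test (6 higher) and 1 past the cut-off (1 lower, 0 higher). The genes called higher were 5 with a pseudocount of 1, the edgeR likelihood ratio test or DESeq2, the genes called lower were 2 with the replicate block, and leaving out 1 library gave 3 to 8 in all, 1 to 3 lower and 2 to 6 higher. The ventral minus dorsal difference was 0.38 with summed values, against −0.57 to −0.26 with 1 library left out.

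Values that did not pass changed sign for *Efnb1* (−0.0116 without wild-type replicate 3, −0.01289 without *Rdh10* KO replicate 3), *Epha5* (0.24 with all libraries, −0.01608 without wild-type replicate 2), *Foxd1* (0.05006 without *Rdh10* KO replicate 1), *Id3* (0.0098 without *Rdh10* KO replicate 3), *Shh* (−0.03566 without wild-type replicate 3, −0.12 without *Rdh10* KO replicate 3) and *Zfp503* (−0.03245 with median scaling, −0.0010 with quantile normalization, −0.06084 without wild-type replicate 3, −0.05877 without *Rdh10* KO replicate 3). Their ranges with 1 library left out were −0.01289 to 0.10 for *Efnb1*, −0.01608 to 0.47 for *Epha5*, −0.14 to 0.05006 for *Foxd1*, −0.18 to 0.0098 for *Id3*, −0.12 to 0.15 for *Shh* and −0.06084 to 0.0579 for *Zfp503*. At 5 to 7 reads in each *Rdh10* KO library, depth limits how closely the fold change of *Vax2* is known.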
